A study of Homo sapiens with 6 samples.

Results

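DNA replication genes were examined as a set of 54 named genes, found by symbol among the 58825 genes of the deposited table. The set covers origin licensing, the replicative helicase, origin firing and fork protection, DNA polymerases and primase, the sliding clamp with its loader and Okazaki fragment joining, the single-strand binding complex RPA, nucleotide supply and maintenance of DNA methylation. RNA was sequenced from MDA-MB-231, an established line from a human triple-negative breast cancer, of mesenchymal character, in 2 groups of 3 libraries. The DSF/Cu libraries came from cells kept for 24 h in disulfiram with copper at 0.2 µM, and the DMSO libraries from cells kept for 24 h in the solvent. Disulfiram is an aldehyde dehydrogenase inhibitor whose main metabolite binds copper, and the labels do not say whether 0.2 µM refers to disulfiram, to copper or to both. Both groups came from the same unmodified line. No library had disulfiram alone or copper alone, so their parts in any change cannot be told apart. Each library pooled the cells of 3 wells, and whether the 3 repeats were grown as separate cultures is not stated, so the p-values below speak of the spread among these libraries, part or all of which may be technical.

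Chromosome replication starts at origins, where the origin recognition complex (ORC), CDC6 and CDT1 load the ring-shaped MCM helicase onto DNA in G1 phase, a step called licensing. The kinases of S phase then turn the loaded rings into active helicases with CDC45 and GINS, and polymerase alpha-primase, delta and epsilon copy the opened strands with the clamp PCNA and its loader RFC. Many of these genes are known targets of the E2F transcription factors and are transcribed mainly at the G1/S transition, which makes their summed RNA a common readout of proliferation. In RNA from a whole culture, fewer cells in S phase and less RNA per cell cannot be told apart.

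Total counts were between 55563223 and 61633168 in the DSF/Cu libraries and between 62165212 and 70883177 in the DMSO libraries. Libraries of the same group correlated at 0.969 to 0.978 (Pearson, log2 CPM over genes) and libraries of different groups at 0.934 to 0.941. Mitochondrial genes took 8.0% to 8.54% of the counts in DSF/Cu libraries and 7.21% to 7.80% in DMSO libraries, so the groups did not overlap in this share, and its part in the changes below was not tested. The labels name an adipose source in the RNA protocol, but all 9 fibroblast, endothelial and adipocyte markers averaged under 1 CPM, with summed levels of 1.00 to 1.58 CPM in DSF/Cu and 0.409 to 0.686 CPM in DMSO libraries, and *DCN*, *LUM*, *CDH5* and *ADIPOQ* had 0 counts throughout. The 7 mesenchymal line markers summed to 6349 to 7016 CPM in DSF/Cu and 6735 to 7008 CPM in DMSO libraries, but within this sum *VIM* (log2 change -0.27 ± 0.07, adjusted p = 0.0208) and *AXL* (-0.76 ± 0.05, adjusted p = 0.000139) were lower, *MSN* (0.57 ± 0.04, adjusted p = 0.000273) and *ZEB1* (0.83 ± 0.22, adjusted p = 0.0255) were higher and 3 were not called. By contrast, the luminal markers *ESR1*, *PGR*, *FOXA1* and *CDH1* were each under 1 CPM on average over the 6 libraries. The 7 luminal markers together, carried by the keratins *KRT8* and *KRT18*, both called lower, summed to 194 to 206 CPM in DSF/Cu and 304 to 364 CPM in DMSO libraries. The 6 immune markers summed to 126 to 174 CPM in DSF/Cu and 94.5 to 182 CPM in DMSO libraries, nearly all of it from *CD68*, and *CD3E* had 0 counts throughout. At very low levels 2 of these markers were higher: *ITGAM* had 121, 33 and 29 counts in DSF/Cu libraries and 0 in each DMSO library (adjusted p = 0.00815), and *CD14* had 127, 67 and 77 counts in DSF/Cu and 17, 30 and 8 counts in DMSO libraries (adjusted p = 0.0106). The part of these marker changes in the results below was not tested.

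The start regions of these genes are described first, because a shared E2F site is the known feature of this gene class. RefSeq windows of GRCh38.p14 (250 bases before to 50 bases after the listed start, the first window listed for each symbol) were found for 48 of the 54 genes; *MCM4*, *MCM5*, *GINS4*, *POLD3*, *RPA2* and *RPA3* were not matched. E2F-type sites were searched on both strands as TTCCCGC, the commonest form here of the known motif, and as the variants TTGGCGC with a changed middle, TTGCCGC with a single changed letter, and finally TTCGCGC. A match of TTGGCGC and a reverse match of TTCGCGC can overlap. At least 1 match stood in the windows of 32 of the 48 genes (66.7%), against 20.1% of the windows of 11209 tested genes and 13.1% of all 27305 windows. Of 52 matches in the replication genes, 38 began within 60 bases of the start on either side. The positions of matches in the windows of other genes were not examined. The sequences of the 6 called genes with the lowest adjusted p and a match upstream of the start are given below, 5′ to 3′ on the gene's strand, because they show what the shared site looks like, with every match in capitals. In *MCM7* these are an overlapping pair on opposite strands. The *ORC3* sequence is added, chosen after its value was seen, because *ORC3* was a called gene that was higher after DSF/Cu and still had a match. Upstream here refers to the RefSeq start. By the deposited gene coordinates, the sites printed for *UHRF1*, *MCM7*, *MCM3* and *ORC3* lie inside the gene.
*UHRF1*, chr19:4909477-4909503, plus strand: ccgagttttcGCGGGAAaaaaatcaga
*MCM7*, chr7:100101389-100101415, minus strand: ggggcgacgtTTCGCGCCAAtttcggt
*MCM3*, chr6:52284749-52284775, minus strand: acctttggtgGCGGGAAgagttcggaa
*LIG1*, chr19:48170441-48170467, minus strand: ttcaccccttTTCCCGCcctcctccca
*ORC3*, chr6:87590113-87590139, plus strand: gcgagggcgcGCGGGAAatcccgagtg
For *MCM6* and *CDC7* the 120 bases before the start touch no exon of the GENCODE 29 annotation and are given whole. That of *MCM6* holds an overlapping pair of matches on opposite strands, and that of *CDC7* a pair of separate matches to GCGGGAA, the reverse complement of TTCCCGC.
*MCM6*, chr2:135876444-135876563, minus strand: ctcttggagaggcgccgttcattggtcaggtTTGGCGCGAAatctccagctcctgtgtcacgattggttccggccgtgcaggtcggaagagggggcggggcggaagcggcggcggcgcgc
*CDC7*, chr1:91500731-91500850, plus strand: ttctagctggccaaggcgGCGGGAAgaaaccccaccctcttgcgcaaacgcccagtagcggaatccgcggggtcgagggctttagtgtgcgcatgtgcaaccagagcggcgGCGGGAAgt

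**Figure D1:**
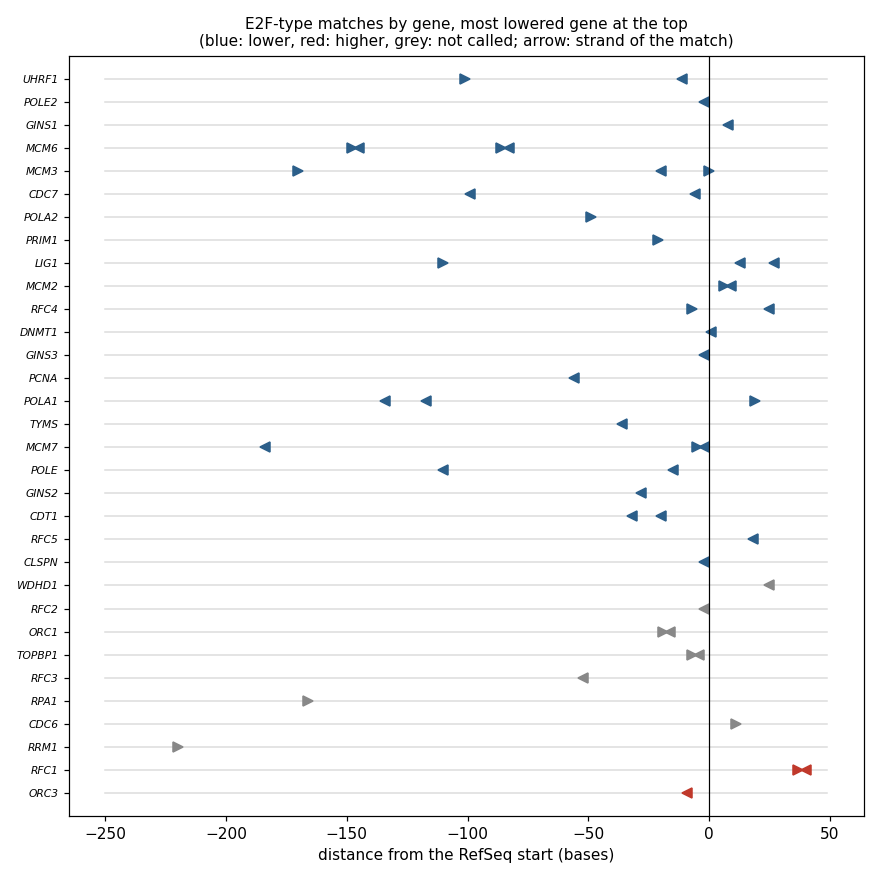
Positions of E2F-type matches (triangles, pointing along the strand of the match) in the start windows of the 32 replication genes that have one, by distance in bases from the RefSeq start; genes run from the most lowered to the most raised after DSF/Cu, coloured by their call. Of the 52 matches 38 began within 60 bases of the start, a share that was not computed for other genes. The only raised genes shown are *ORC3* and *RFC1*. In the uncalled genes *RPA1* and *RRM1* the only match began far upstream, at -169 and -223.

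DNA replication genes were mostly lower after DSF/Cu, by less than 2-fold each. With edgeR's quasi-likelihood test and a Benjamini-Hochberg adjusted p under 0.05 over 18229 genes, 34 of the 54 were lower (63.0%), 4 were higher (7.41%) and 16 were not called. Among all genes tested, 16.8% were called lower and 18.5% higher. The replication genes are well expressed, so protein-coding genes with at least the mean level of the lowest of them (17.8 CPM) give a closer background: of 7789 such genes, 25.7% were called lower and 24.6% higher. CPM here are counts relative to the TMM-adjusted total of each library. All DSF/Cu libraries lay below all DMSO libraries for 39 of the 54 (72.2%), against 25.2% of all genes tested and 33.7% of the 7789, and above them for 4, against 26.0% and 30.8%. The median log2 change of the 54 was -0.31, with a range from -0.84 to 0.68, where the median of all genes tested was 0.00227 and that of the 7789 was -0.0238. Log2 changes throughout are DSF/Cu over DMSO, given with their standard error.

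Added over all 54 genes, the level was 5157, 5429 and 5287 CPM in the DSF/Cu libraries, against 6330, 6558 and 6343 CPM in the DMSO libraries. The highest DSF/Cu sum was below the lowest DMSO sum. Across the 54 genes Spearman's rho between the log2 change and the DMSO level was -0.0222, a description over genes of the same libraries. The lowest count of any of these genes in any library was 589. Changes are relative to the TMM scaling, and scaling by total counts moved the median of all genes to -0.182. Under total counts 41 of the 54 were called lower and 2 higher, and 32.7% of all calls in the table were rises, against 52.4% under TMM. Called lower under TMM and all 13 other settings were 23 of the 54, and called higher in all of them was *PRIM2* alone. *GINS4*, *WDHD1*, *POLE3* and *RFC2* missed the threshold but were called lower under total counts and with DESeq2, so the count of 34 depends on where such small changes fall.

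**Figure D2:**
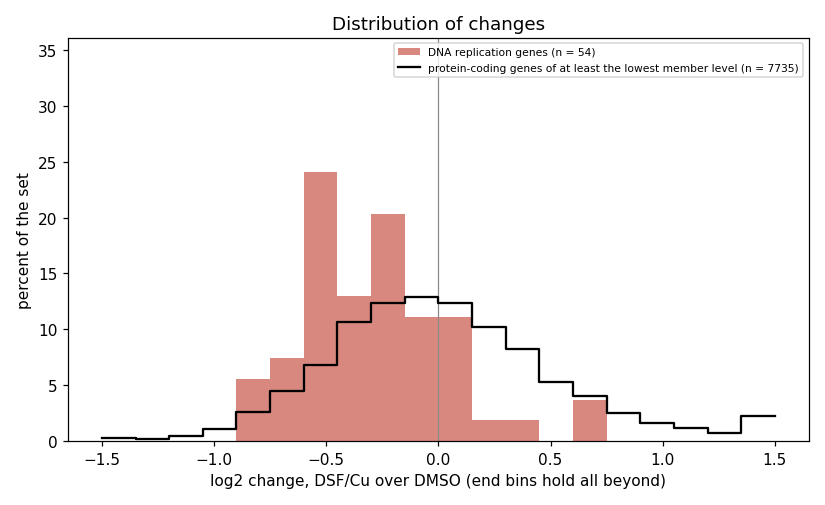
Distribution of log2 changes (x axis, DSF/Cu over DMSO; end bins hold all values beyond them) as a percentage of each set (y axis), for the 54 DNA replication genes (filled) and the other 7735 protein-coding genes of at least the level of the lowest of them (line). The replication genes have a median of -0.31 and none beyond -0.84 or 0.68, while the line is centred near 0.

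**Figure D3:**
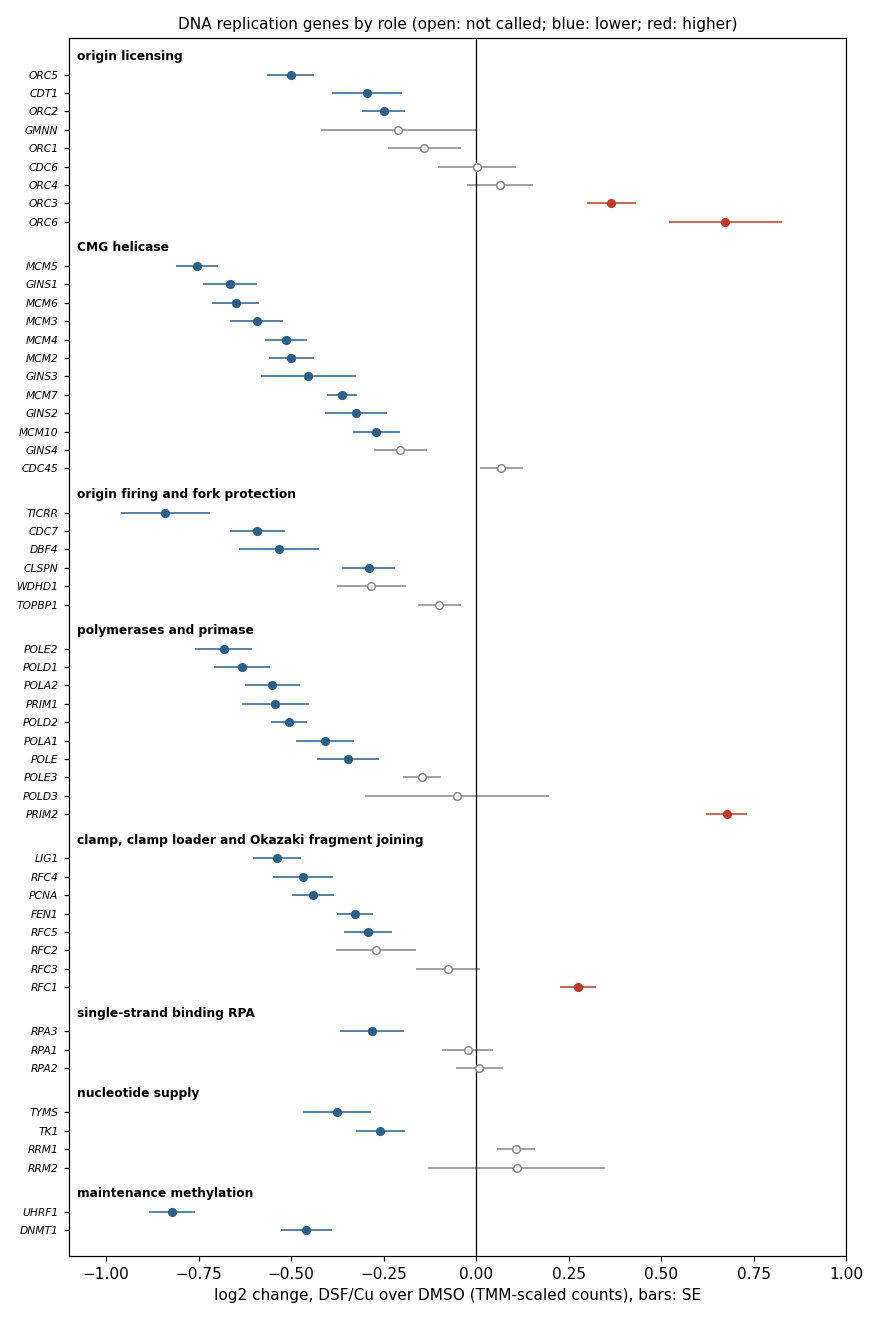
Log2 change of each of the 54 genes (x axis, DSF/Cu over DMSO; bars are standard errors), sorted within the 8 roles; filled blue points were called lower, filled red points higher, and open points were not called. Helicase, polymerase and methylation genes lie mostly left of 0, and the 4 called rises are *ORC6*, *ORC3*, *PRIM2* and *RFC1*.

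Origin licensing genes moved in both directions. Of 9 genes 3 were lower, 2 were higher and 4 were not called, with a median log2 change of -0.14. Among the 7789 protein-coding genes of the closer background 25.7% were called lower and 24.6% higher, so these calls were near that share. The same shares are the background for each role below. *ORC5*, a subunit of the origin recognition complex (chr7:104126341-104208047), held 36.5, 37.8 and 39.5 CPM in DSF/Cu libraries, against 51.9, 54.1 and 54.9 CPM in DMSO libraries. The groups stood well apart, and *ORC5* was 1.42 times lower after DSF/Cu (log2 change -0.50 ± 0.06, adjusted p = 0.00168). *ORC2*, a further subunit, held 79.2, 79.3 and 84.2 CPM in DSF/Cu and 92.4, 96.7 and 99.4 CPM in DMSO libraries (-0.25 ± 0.06, adjusted p = 0.0163). The call of *ORC2* was lost without DSF/Cu replicate 2 (adjusted p = 0.0585), DMSO replicate 2 (0.0513) or DMSO replicate 3 (0.057).

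*ORC6*, the smallest subunit, which helps to place the MCM ring (chr16:46689643-46698394), went the other way. It held 54.3, 52.7 and 50.8 CPM in DSF/Cu libraries, against 25.2, 36.4 and 37.4 CPM in DMSO libraries, with DMSO replicate 1 apart from the rest of its group. The groups did not overlap, and *ORC6* was 1.59-fold higher (0.67 ± 0.15, adjusted p = 0.0155; limma on log2(FPKM + 0.1) gave adjusted p = 0.0544). *ORC3*, whose site was printed above, held 49.5, 51.0 and 52.9 CPM in DSF/Cu and 38.1, 41.4 and 39.6 CPM in DMSO libraries, 1.29-fold higher (0.36 ± 0.07, adjusted p = 0.00629). The rise of *ORC3* was not called under total counts (log2 change 0.18, adjusted p = 0.086) or with limma on log2(FPKM + 0.1) (adjusted p = 0.104). *ORC1*, an ATP-binding subunit, was at -0.14 ± 0.10 and *ORC4* at 0.06 ± 0.09, and neither was called. *ORC1* was called lower under total counts (-0.32, adjusted p = 0.0434).

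*CDT1*, which brings the MCM ring to ORC, held 40.6, 38.8 and 45.3 CPM in DSF/Cu and 51.7, 55.0 and 46.4 CPM in DMSO libraries (-0.30 ± 0.09, adjusted p = 0.0495). DSF/Cu replicate 3 and DMSO replicate 3 lay close to each other, and the call was lost without DSF/Cu replicates 1 or 2 or DMSO replicates 1 or 2 (adjusted p from 0.115 to 0.143). Its inhibitor geminin, *GMNN*, held 63.6, 55.6 and 38.0 CPM in DSF/Cu and 65.9, 66.9 and 49.1 CPM in DMSO libraries, with replicate 3 low in both groups. The groups overlapped and *GMNN* was not called (-0.21 ± 0.21, adjusted p = 0.487). *CDC6*, the licensing ATPase, held 129, 129 and 145 CPM in DSF/Cu and 124, 154 and 124 CPM in DMSO libraries (0.00 ± 0.10, adjusted p = 0.991). The groups overlapped, and the log2 change of *CDC6* was -0.18 under total counts, close to the shift of all genes.

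Of 12 helicase genes 10 were lower, none was higher and 2 were not called, with a median log2 change of -0.48. MCM2 to MCM7 form the hexameric ring that unwinds the template, and all 6 of their genes were lower in every DSF/Cu library than in any DMSO library. Summed over the 6 genes, the level was 1010, 1058 and 1027 CPM in DSF/Cu libraries, against 1483, 1516 and 1442 CPM in DMSO libraries. *MCM5* (chr22:35400134-35424501) had 86.4, 87.3 and 84.5 CPM in DSF/Cu and 153, 143 and 139 CPM in DMSO libraries. It was 1.69 times lower (-0.76 ± 0.06, adjusted p = 0.000248).

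*MCM6* (chr2:135839626-135876443), whose start region was printed above, held 75.9, 81.3 and 82.1 CPM in DSF/Cu and 121, 132 and 122 CPM in DMSO libraries, 1.57 times lower (-0.65 ± 0.06, adjusted p = 0.000611). *GINS1*, a subunit of the GINS complex that joins the ring and CDC45 in the active helicase, held 24.0, 25.9 and 23.6 CPM in DSF/Cu and 37.1, 39.9 and 39.5 CPM in DMSO libraries (-0.67 ± 0.07, adjusted p = 0.000989). *MCM4* held 140.4, 143 and 145 CPM in DSF/Cu and 201, 217 and 194 CPM in DMSO libraries, 1.43 times lower (adjusted p = 0.000994). In each of these genes the spread within a group was small beside the gap between groups. *MCM3* was 1.51 times lower (adjusted p = 0.00132), *MCM2* 1.41 times (adjusted p = 0.00132) and *MCM7* 1.29 times (-0.36 ± 0.04, adjusted p = 0.000996).

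*CDC45*, the remaining part of the active helicase, did not pass the test. It held 64.8, 63.1 and 68.3 CPM in DSF/Cu and 62.1, 63.8 and 61.3 CPM in DMSO libraries. The groups overlapped and *CDC45* was not called (0.07 ± 0.06, adjusted p = 0.424); under total counts its log2 change was -0.12, still not called (adjusted p = 0.192). The smaller changes in this role were less secure. *GINS2* (-0.32 ± 0.08), *GINS3* (-0.45 ± 0.13) and *MCM10* (-0.27 ± 0.06), a factor that helps to activate the helicase, were called lower. *GINS2* lost the call without DSF/Cu replicates 1 or 3 or DMSO replicates 1 or 2 (adjusted p from 0.0594 to 0.0717), *GINS3* without DSF/Cu replicates 2 or 3 or DMSO replicates 2 or 3 (0.0725 to 0.0977), and *MCM10* without DMSO replicate 1 (0.0528) or DMSO replicate 2 (0.0553). *GINS4* held 42.4, 40.1 and 45.5 CPM in DSF/Cu and 47.9, 50.8 and 49.0 CPM in DMSO libraries, with no overlap, and missed the threshold (-0.21 ± 0.07, adjusted p = 0.0662).

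**Figure D4:**
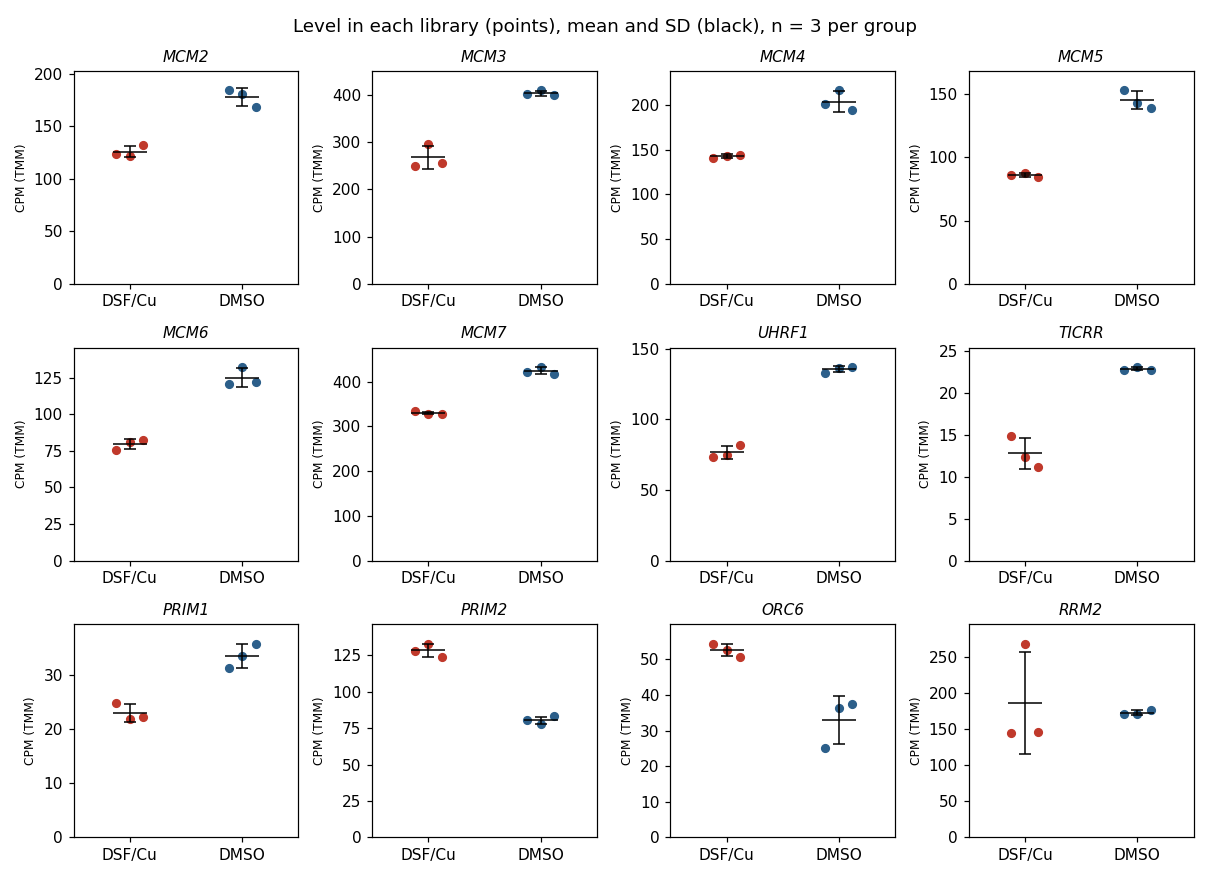
Level of 12 replication genes in each library (points; y axis in TMM-scaled CPM from 0), with the mean and SD of the 3 libraries per group in black; DSF/Cu is on the left of each panel and DMSO on the right. The 6 MCM genes, *UHRF1*, *TICRR* and *PRIM1* are lower in every DSF/Cu library, *PRIM2* and *ORC6* are higher in every one, and *RRM2* shows 1 high DSF/Cu library at 269 CPM.

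Of 6 origin firing and fork protection genes, 4 were lower, none was higher and 2 were not called, with a median log2 change of -0.41. *TICRR* (chr15:89575482-89628023), also called treslin, links kinase signals to the loading of CDC45. It held 14.8, 12.4 and 11.1 CPM in DSF/Cu libraries, against 22.7, 23.1 and 22.8 CPM in DMSO libraries. That is 1.79 times lower (-0.84 ± 0.12, adjusted p = 0.00271), at the lowest mean level of the set, and within error of the change of *UHRF1* given below. With limma on log2(FPKM + 1), which understates changes of low genes, *TICRR* was at -0.64 and *UHRF1* at -0.94. *TICRR* shares 589 exon bases, 7.01% of its own, with *KIF7* on the opposite strand, which was itself lower (log2 change -0.79, 15.7 CPM on average). The strand setting of the counting is not given in the sources used here, so reads in the shared bases cannot be assigned to either gene.

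The kinase that fires origins, made of CDC7 and its activator DBF4, was lower in both parts. *CDC7* (chr1:91500851-91525764), whose start region with a pair of sites was printed above, held 41.1, 46.9 and 45.4 CPM in DSF/Cu and 65.2, 70.1 and 65.8 CPM in DMSO libraries (-0.59 ± 0.07, adjusted p = 0.0015). *DBF4* held 20.5, 23.6 and 19.3 CPM in DSF/Cu and 28.0, 31.2 and 32.6 CPM in DMSO libraries (-0.53 ± 0.11, adjusted p = 0.0101). Neither gene overlapped between groups. *CLSPN*, which encodes the fork protection and checkpoint adaptor claspin, held 56.2, 61.7 and 64.9 CPM in DSF/Cu and 76.8, 74.5 and 72.3 CPM in DMSO libraries (-0.29 ± 0.07, adjusted p = 0.0205). Its call was lost without DSF/Cu replicate 2, DMSO replicate 1 or DMSO replicate 2 (adjusted p from 0.0539 to 0.0611). *WDHD1*, which tethers polymerase alpha to the helicase, was at -0.28 ± 0.09 (adjusted p = 0.0551) and *TOPBP1*, a scaffold of firing and of checkpoint signals, at -0.10 ± 0.06 (adjusted p = 0.24). Both lay below the DMSO range in every DSF/Cu library without passing the test. *WDHD1* was called lower without DSF/Cu replicate 3 (adjusted p = 0.0365).

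Among 10 polymerase and primase genes, 7 were lower, 1 was higher and 2 were not called, with a median log2 change of -0.46. *POLD2*, an accessory subunit of the lagging strand polymerase delta, held 129, 122 and 121 CPM in DSF/Cu libraries, against 176 CPM in each DMSO library. It was 1.42 times lower (-0.51 ± 0.05, adjusted p = 0.000586). *POLD1*, the catalytic subunit, held 48.4, 44.0 and 50.4 CPM in DSF/Cu and 78.0, 72.5 and 70.7 CPM in DMSO libraries, 1.55 times lower (-0.63 ± 0.08, adjusted p = 0.00134). These subunits of 1 enzyme fell together, but *POLD3*, a further measured subunit, varied widely within both groups. It held 32.0, 54.9 and 49.6 CPM in DSF/Cu and 54.3, 52.8 and 34.4 CPM in DMSO libraries, and was not called (-0.05 ± 0.25, adjusted p = 0.895).

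*POLE2*, a non-catalytic subunit of the leading strand polymerase epsilon, held 37.9, 40.0 and 42.6 CPM in DSF/Cu and 60.1, 65.9 and 67.4 CPM in DMSO libraries. It was 1.61 times lower (-0.68 ± 0.08, adjusted p = 0.00101). The catalytic subunit gene *POLE* was 1.27 times lower (-0.35 ± 0.08, adjusted p = 0.0182; 0.0573 without DSF/Cu replicate 1). *POLE3*, a histone-fold subunit that also serves in chromatin remodelling, was at -0.15 ± 0.05 and not called (adjusted p = 0.0642), although its groups did not overlap.

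Polymerase alpha-primase starts every new strand with a short RNA and DNA primer, and its 4 genes parted. *PRIM1*, which encodes the catalytic primase subunit, held 24.9, 21.9 and 22.1 CPM in DSF/Cu libraries, against 31.3, 33.4 and 35.7 CPM in DMSO libraries (-0.54 ± 0.09, adjusted p = 0.00465). *PRIM2* (chr6:57314805-57646850), which encodes the large primase subunit, held 128, 133 and 124 CPM in DSF/Cu libraries, against 80.3, 77.7 and 83.0 CPM in DMSO libraries. It was 1.60-fold higher (0.68 ± 0.06, adjusted p = 0.000344), within error of the rise of *ORC6*, and it was called higher in all 13 other settings. *POLA1*, the polymerase itself, was 1.33 times lower (-0.41 ± 0.08, adjusted p = 0.00802) and *POLA2* 1.47 times lower (-0.55 ± 0.07, adjusted p = 0.00205). Parts of *PRIM2* are known to be duplicated in the human genome, so its count is uncertain. *POLA2* shares 35.1% of its exon bases with a same-strand gene, *AP000944*, that averaged 2.86 CPM.

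The clamp, its loader and the enzymes that finish Okazaki fragments gave 5 lower, 1 higher and 2 uncalled genes of 8, with a median log2 change of -0.31. *PCNA*, the sliding clamp that holds polymerases on DNA, held 248, 265 and 256 CPM in DSF/Cu libraries, against 327, 352 and 365 CPM in DMSO libraries. It was 1.36 times lower (-0.44 ± 0.06, adjusted p = 0.00182). *LIG1*, the ligase that seals Okazaki fragments, held 58.6, 64.1 and 56.8 CPM in DSF/Cu and 87.6, 85.9 and 87.2 CPM in DMSO libraries, 1.45 times lower (-0.54 ± 0.06, adjusted p = 0.00132). *FEN1*, the nuclease that trims their flaps, held 173, 178 and 183 CPM in DSF/Cu and 217, 227 and 226 CPM in DMSO libraries, 1.25 times lower (-0.33 ± 0.05, adjusted p = 0.00295). In all of these genes the groups did not overlap.

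The loader RFC is built of a large subunit, RFC1, and 4 small ones; of its genes 2 were lower, 1 was higher and 2 were not called. *RFC4* held 84.8, 95.4 and 86.5 CPM in DSF/Cu and 112, 125 and 132 CPM in DMSO libraries (-0.47 ± 0.08, adjusted p = 0.00548), and *RFC5* was 1.23 times lower (-0.29 ± 0.06, adjusted p = 0.0133). *RFC2* was at -0.27 ± 0.11 (adjusted p = 0.0993) and *RFC3* at -0.08 ± 0.09 (adjusted p = 0.548), and neither was called. *RFC1* (chr4:39287456-39366375) held 110.3, 111 and 108 CPM in DSF/Cu and 91.9, 89.1 and 90.9 CPM in DMSO libraries, 1.21-fold higher (0.27 ± 0.05, adjusted p = 0.00594). This rise depended on scaling: under total counts it was 0.089 (adjusted p = 0.219), and none of the 3 limma fits to FPKM called it (adjusted p from 0.13 to 0.279).

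Of the 3 genes of RPA, the complex that covers single-stranded DNA at the fork and in repair, 1 was lower and 2 were not called, with a median log2 change of -0.02. *RPA1*, its large subunit, held 361, 327 and 335 CPM in DSF/Cu and 359, 363 and 319 CPM in DMSO libraries (-0.02 ± 0.07, adjusted p = 0.827). *RPA2* held 82.0, 74.0 and 76.4 CPM in DSF/Cu and 74.3, 80.2 and 76.6 CPM in DMSO libraries (0.01 ± 0.06, adjusted p = 0.935). Both overlapped between groups, but under total counts *RPA1* was called lower (-0.21, adjusted p = 0.0421). The small subunit gene *RPA3* was the called one, with 26.4, 30.9 and 28.7 CPM in DSF/Cu and 32.8, 35.6 and 36.0 CPM in DMSO libraries (-0.28 ± 0.09, adjusted p = 0.0443). That call was lost without DSF/Cu replicates 1 or 3 or any 1 DMSO replicate (adjusted p from 0.0547 to 0.119).

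Of 4 nucleotide supply genes, the 2 of thymidylate supply were lower and the 2 of ribonucleotide reductase were not called, with a median log2 change of -0.08. *TYMS*, thymidylate synthase, held 152, 160.5 and 149 CPM in DSF/Cu and 185, 186 and 228 CPM in DMSO libraries (-0.38 ± 0.09, adjusted p = 0.0209). *TK1*, which salvages thymidine in S phase, held 86.7, 93.0 and 95.2 CPM in DSF/Cu and 112, 114 and 103 CPM in DMSO libraries, 1.20 times lower (-0.26 ± 0.07, adjusted p = 0.0229). Neither gene overlapped between groups, yet both calls were fragile. *TYMS* lost its call without DSF/Cu replicate 1 (adjusted p = 0.066) or 3 (0.0708), and *TK1* without DSF/Cu replicates 1 or 2 or DMSO replicates 1 or 2 (0.0558 to 0.0756). *TYMS* also shares 967 exon bases, 39.1% of its own, with *ENOSF1* on the opposite strand, which averaged 27.8 CPM and was lower as well (log2 change -0.81).

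*RRM1*, the large subunit of ribonucleotide reductase, held 367, 378 and 383 CPM in DSF/Cu and 333, 367 and 348 CPM in DMSO libraries (0.11 ± 0.05, adjusted p = 0.161), with no call and overlapping groups; DESeq2 called it higher (0.12, adjusted p = 0.0413), and its log2 change was -0.077 under total counts. *RRM2* (chr2:10120698-10210597), the subunit that is turned over with the cell cycle, depended on a single library. It held 145, 269 and 146 CPM in DSF/Cu libraries, against 172, 171 and 177 CPM in DMSO libraries. DSF/Cu replicates 1 and 3 were below every DMSO library and DSF/Cu replicate 2 was far above them, which left *RRM2* uncalled (0.11 ± 0.24, adjusted p = 0.766). Without DSF/Cu replicate 2 its log2 change was -0.24 and *RRM2* was called lower (adjusted p = 0.0287).

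Both genes that copy DNA methylation onto the new strand were lower, in all 14 settings, with a median log2 change of -0.64. *UHRF1* (chr19:4903080-4962154), which reads hemimethylated DNA behind the fork, held 73.0, 74.9 and 81.8 CPM in DSF/Cu libraries, against 133, 136 and 137 CPM in DMSO libraries. It was 1.77 times lower (-0.82 ± 0.06, adjusted p = 0.000244). *DNMT1*, the methyltransferase that UHRF1 brings to the fork, held 236, 229 and 248 CPM in DSF/Cu and 329, 350.3 and 300.1 CPM in DMSO libraries, 1.37 times lower (-0.46 ± 0.07, adjusted p = 0.00332).

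Subunits of 1 complex can be set side by side only per length, so the deposited FPKM values were used for levels between genes. FPKM are fragments per kilobase of the length assigned to each gene, scaled for library size. How that length was set was not checked. Within the MCM ring, *MCM7* had 60.2 ± 0.529 FPKM and *MCM3* 58.7 ± 5.86 FPKM in DSF/Cu libraries (SD, n = 3), against 87.3 ± 1.28 and 99.7 ± 1.08 FPKM in DMSO libraries. *MCM2* had 21.4 ± 1.18 FPKM in DSF/Cu and 34.0 ± 1.70 FPKM in DMSO libraries. *MCM5*, the lowest of the ring by FPKM in both groups, had 9.48 ± 0.174 FPKM in DSF/Cu and 18.0 ± 0.992 FPKM in DMSO libraries. Before division by length *MCM5* was above *MCM6*, with means of 86.1 against 79.8 CPM in DSF/Cu and 145 against 125 CPM in DMSO libraries. The protein ring holds 1 copy of each subunit. From the highest to the lowest subunit, FPKM spanned 6.36-fold in DSF/Cu and 5.53-fold in DMSO libraries. These spans and the place of *MCM5* depend on the length assigned to each gene. In DSF/Cu libraries *MCM7* and *MCM3* did not differ beyond their spread, and likewise *MCM4* (16.4 ± 0.546 FPKM) and *MCM6* (15.5 ± 0.931 FPKM). In DMSO libraries *MCM6* (27.3 ± 1.22 FPKM) and *MCM4* (26.4 ± 1.40 FPKM) were as close.

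**Figure D5:**
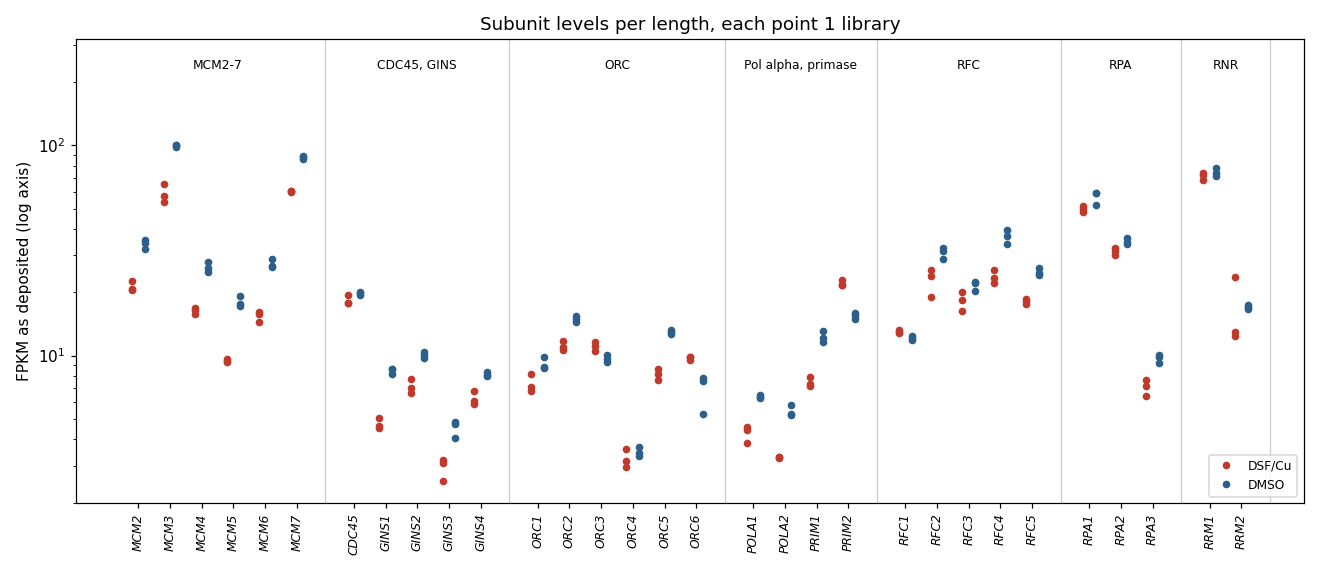
Deposited FPKM (log y axis) of the subunits of 7 replication complexes, with each point 1 library, DSF/Cu in red to the left of DMSO in blue. The MCM genes keep *MCM3* and *MCM7* on top and *MCM5* at the bottom in both groups, and *PRIM2*, *ORC6*, *ORC3* and *RFC1* have higher DSF/Cu points while most of their partners have lower ones.

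Ratios of FPKM within a library do not depend on the scaling of libraries; the pairs were chosen after the values were seen, so they are given without a test. *PRIM2* over *PRIM1*, the subunits of primase, was 2.71, 3.19 and 2.94 in DSF/Cu libraries, against 1.35, 1.22 and 1.22 in DMSO libraries. *ORC6* over *ORC5* was 1.29, 1.21 and 1.11 in DSF/Cu libraries, against 0.419, 0.582 and 0.588 in DMSO libraries, so that *ORC6* was the higher of the pair after DSF/Cu and the lower in DMSO. *CDC45* over *MCM5* was 1.91, 1.84 and 2.06 in DSF/Cu libraries, against 1.04, 1.14 and 1.12 in DMSO libraries. Within these pairs the subunits changed unequally in every library. *RFC1* over *RFC4* was 0.581, 0.518 and 0.556 in DSF/Cu libraries, against 0.364, 0.319 and 0.307 in DMSO libraries. *CDC7* over *DBF4*, by contrast, was 2.57, 2.54 and 3.02 in DSF/Cu libraries and 2.98, 2.87 and 2.57 in DMSO libraries, which overlapped. *CDT1* over its inhibitor *GMNN* was 0.574, 0.627 and 1.07 in DSF/Cu libraries and 0.704, 0.738 and 0.848 in DMSO libraries, and overlapped as well.

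E2F-type matches stood in the start windows of lowered, uncalled and raised genes. Of the 31 called-lower genes with a window, 22 had a match (71.0%), of the 13 uncalled genes 8 had one (61.5%), and of the 4 called-higher genes *ORC3* and *RFC1* had one. Among all other genes called lower, 23.2% of 2292 windows held a match, near the 20.1% of all tested genes. The median log2 change was -0.37 in the 32 replication genes with a match and -0.25 in the 16 without. A CCAAT box (CCAAT, both strands) stood in 52.1% of the 48 windows, against 36.8% of those of tested genes, and the letters TTTGAA of the cell cycle homology region in 4.17%, namely *DBF4* and *RRM1*, against 9.94%. These matches describe letters in a 300-base window and do not show binding.

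A further list held 42 genes that act around the fork and are not among the 54. Of these, 23 were lower, 2 were higher and 17 were not called, with a median log2 change of -0.34. Of all genes tested 16.8% were called lower and 18.5% higher. The closer background, with 25.7% called lower and 24.6% higher, starts at 17.8 CPM. Most of this list lies above that level, but *POLD4*, *ETAA1*, *MCM9*, *CHTF8* and *ATAD5* lie below it, down to a mean of 7.57 CPM. Only 1 was lower by over 2-fold, the checkpoint activator gene *ETAA1* (-1.02 ± 0.21, adjusted p = 0.0104, named after its value was seen). *TOP2A*, the topoisomerase that untangles finished chromosomes, held 216, 250.2 and 268 CPM in DSF/Cu libraries, against 479, 485 and 468 CPM in DMSO libraries, 1.95 times lower (-0.96 ± 0.08, adjusted p = 0.000393). *CAD*, the enzyme that starts pyrimidine synthesis, held 87.2, 82.2 and 92.3 CPM in DSF/Cu and 166, 152 and 144 CPM in DMSO libraries, 1.77 times lower (adjusted p = 0.000495). Neither gene overlapped between groups. *DTYMK*, which phosphorylates the product of *TYMS* and *TK1*, was 1.67 times lower (-0.74 ± 0.08, adjusted p = 0.000711), the fork protection gene *TIMELESS* 1.68 times lower (-0.74 ± 0.09, adjusted p = 0.00116) and *SSRP1*, a subunit of the histone chaperone FACT, 1.25 times lower (-0.33 ± 0.04, adjusted p = 0.00159).

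The 2 of these 42 genes that were higher act in licensing control and in chromatin. *DTL*, the adaptor of the ubiquitin ligase that removes CDT1 in S phase, held 119.6, 119 and 135 CPM in DSF/Cu libraries, against 73.5, 78.5 and 80.0 CPM in DMSO libraries, 1.61-fold higher (0.69 ± 0.07, adjusted p = 0.000757). *ASF1A*, a histone H3 and H4 chaperone, held 30.9, 31.9 and 30.3 CPM in DSF/Cu and 24.4, 25.5 and 26.1 CPM in DMSO libraries, 1.22-fold higher (0.29 ± 0.07, adjusted p = 0.0185). The rise of *ASF1A* was not called under total counts (0.107, adjusted p = 0.288), nor without DSF/Cu replicate 2, DMSO replicate 1 or DMSO replicate 2 (adjusted p from 0.0581 to 0.0587). *DTL* and *PRIM2* stayed called in every setting.

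The KEGG term for DNA replication, with its genes as listed in the deposited table, held 36 genes, of which 23 were lower and 2 higher, with a median log2 change of -0.38. Of these, 27 are among the 54 genes (19 lower, 2 higher), and the other 9, mostly ribonuclease H and small polymerase subunits, gave 4 lower and none higher. Among these 9, *RNASEH2A*, *RNASEH2B*, *RNASEH2C*, *DNA2*, *POLE4* and *POLD4* are also in the list of 42 further genes. The lower calls of *RNASEH2A*, *RNASEH2C* and *DNA2* were thus already counted there. The KEGG cell cycle term held 119 tested genes, 49 lower and 19 higher. Its 17 genes that are among the 54 gave 11 lower and 2 higher. Of all genes tested 16.8% were called lower and 18.5% higher, and the higher calls of the cell cycle term were near that share. The closer background had 25.7% lower and 24.6% higher, and the higher calls of the cell cycle term lay below its share. The levels of the genes in these terms were not matched to either background.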

How the data were processed

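Poly(A) RNA of 6 paired-end libraries, 3 of DSF/Cu and 3 of DMSO cells, had been sequenced and counted by the authors. The deposited table holds raw counts per gene as whole numbers, per the file headers, and deposited FPKM values computed by the authors from the same quantification. Columns headed Control were taken as DMSO, the other group of the labels. The submitters' processing notes list Bowtie 0.12.2, HISAT2 2.0 and StringTie 1.3.0 without roles; neither the counter nor its strand setting is named in the notes, labels or headers. Although mm8, a mouse build, is listed too, the genes are human: all 54 gene IDs occur in GENCODE 29, 50 of them with start and end within 1 kb, so coordinates are GRCh38, as the table gives them.

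Counts were filtered with filterByExpr (minimum count 10; 18229 of 58825 genes kept, 29536 having 0 counts in all libraries), scaled by TMM and tested in edgeR 4.0.16 (R 4.3.3; quasi-likelihood F test), all 6 libraries, no covariate, two-sided, with Benjamini-Hochberg adjustment over all genes tested and a threshold of 0.05. Standard errors are the absolute log2 change over the square root of F. Libraries of a group were compared by a chi-square per degree of freedom (50.2 to 64.0), so none repeats another. Counts were simulated for 18229 genes with dispersions from the trend over expression level fitted to these data, whose common dispersion was 0.0757. There 13 of 57 genes changed 1.5-fold were called, 32 of 73 changed 2-fold, 52 of 70 changed 4-fold and 2 of 18029 unchanged ones. Most 1.5-fold changes were thus missed in the simulated counts. The simulated changed genes were few and drawn from all levels tested, while the real data gave 3059 lower and 3365 higher calls. The simulated shares therefore do not give the sensitivity for the replication genes, which are well expressed. Alternatives were total-count scaling, DESeq2 1.42.0, no filter, a replicate block, each replicate left out, and limma 3.58.1 on log2(FPKM + 1), on log2(FPKM + 0.1) and on log2(FPKM + 1) with a mean FPKM of at least 1; the 3 FPKM fits share their reads with the count fits.

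The genes, roles and lists were chosen with earlier results of these data known. Values per library are given for up to 4 called genes by adjusted p in each role and any called gene that moved against most of its role; other genes with values were added to account for the set. The 42 further genes are named likewise, up to 6 and any called higher. Start windows and their sequences come from RefSeq (GRCh38.p14); of the 120-base stretches only those free of GENCODE 29 exons are printed, and sites of other genes in 27 bases. Of the 54 genes, 24 share exon bases with another gene and 6 share over 10%; of 16 pseudogenes of these genes in the table, none averaged over 0.456 CPM.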

Additional observations from a re-analysis of the deposited data

How the results depend on the processing

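Of the 54 genes 34 were called lower; the number was 41 under total counts, 38 with DESeq2, 32 without a filter and 26 to 31 with a replicate left out. The 4 called higher became 2 under total counts and 1 with limma on log2(FPKM + 0.1), and stayed 4 whichever replicate was left out. The median log2 change, -0.31, was -0.495 under total counts, -0.441 with limma on log2(FPKM + 1), with or without a minimum mean FPKM, and -0.478 with log2(FPKM + 0.1), and -0.346 to -0.315 with a replicate left out. With a replicate left out, lower calls numbered 1 to 3 in licensing, 7 to 9 in the helicase, 3 to 5 in firing, 6 to 7 in polymerases, 5 in the clamp role, 0 to 1 in RPA, 0 to 2 in nucleotide supply and 2 in methylation. In RPA, where *RPA3* was the call, 2 were lower under total counts and 0 without a filter. *RRM2*, not called with all libraries, was called lower without DSF/Cu replicate 2 (-0.245), and its log2 change reached 0.264 with another replicate left out. Further replication genes gave 15 to 23 lower calls (23 with all libraries) and 1 to 2 higher with a replicate left out, and 1 higher in place of 2 under total counts and in the 3 FPKM fits. Over all genes 3059 lower calls became 4856 under total counts, 4867 with log2(FPKM + 1), 4595 with log2(FPKM + 0.1) and 2284 to 2550 with a replicate left out; 3365 higher calls became 1790 with log2(FPKM + 1) and a minimum mean, and 2786 to 2953.

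Replicate numbers are not stated to pair the samples, and deviations of same-numbered libraries correlated at 0.0222, -0.00238 and 0.0469, with 3 of 6 libraries closest to their own number. With the replicate block 26 genes were called lower and 4 higher, RPA and nucleotide supply had 0 lower calls, and the further genes had 1 higher call. The cause of these shifts was not tested. Over 61 named genes and 13 settings, 58 calls were lost and 31 were gained in the same direction, beside *RRM2*. The block ended the calls of *CDT1*, *GINS3*, *MCM10*, *CLSPN*, *POLE*, *RFC5*, *RPA3*, *TYMS*, *TK1* and *ASF1A* (adjusted p from 0.0519 to 0.122).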
